A study of Mus musculus with 8 samples.

Results

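The citric acid cycle and the steps that feed pyruvate into it were examined through 33 genes, chosen by their function, with earlier results of these data known. They were grouped by role: the pyruvate carrier and pyruvate carboxylase, the pyruvate dehydrogenase complex with its kinases and phosphatases, the enzymes of the cycle, the cytosolic and malic enzymes around it, and the enzymes of 2-hydroxyglutarate. Each gene was read from the brightest of its probe sets, by mean signal across the 8 arrays, among those annotated to a single gene. Of the 33, 32 were measured among 22180 genes, and Mpc2, the other subunit of the pyruvate carrier, is not analysed here. The arrays held RNA of AML12, a line of mouse hepatocytes, as 4 wild-type samples and 4 samples in which Vwa8, a gene for a mitochondrial protein with an ATPase domain, had been deleted with CRISPR/Cas9. Cells of both genotypes were grown in DMEM/F12 with serum, antibiotics, insulin, transferrin, selenium and dexamethasone, a synthetic glucocorticoid. The labels give neither the number of knockout clones nor whether samples came from separate cultures. The deletion and a difference between clones cannot be told apart, and p-values measure the spread between these samples, which may be technical. Nor can less of a transcript per cell be told apart from fewer cells that make it.

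Pyruvate made by glycolysis enters mitochondria through a carrier in the inner membrane. There it is either carboxylated to oxaloacetate, the anaplerotic entry that liver uses for glucose synthesis, or oxidised to acetyl-CoA by the pyruvate dehydrogenase complex. Kinases phosphorylate that complex and switch it off, and phosphatases switch it back on, so that fasting liver spares pyruvate while it burns fatty acids. The cycle then oxidises acetyl-CoA and passes electrons to the respiratory chain, and citrate, malate and 2-oxoglutarate leave it for lipid, glucose and amino acid metabolism.

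The transcript of the deleted gene set the groups apart. The log2 signal of Vwa8 averaged 8.95 ± 0.0414 over the 4 wild-type arrays (SD, n = 4) and 5.18 ± 0.116 over the 4 knockout arrays. This is 13.6-fold lower (limma adjusted p = 4.84e-08), and an exact permutation test gave two-sided p = 0.0286, the smallest possible with 4 arrays a group. Whether the probe set covers the deleted stretch is unknown. Over all genes, arrays of the same genotype correlated at r between 0.993 and 0.995 and arrays of different genotypes between 0.985 and 0.987. Hepatocyte identity was checked with listed markers: all 8 measured hepatocyte markers lay above the median probe set (4.28), 6 of them higher and 2, Krt8 and Krt18, lower in the knockout, and the log2 of their summed signal ran from 14.6 to 14.64 in wild-type and from 14.8 to 14.85 in knockout arrays. None of 8 stellate cell or fibroblast, 6 endothelial and 6 macrophage markers passed the test, and 1, 1 and 2 of them lay above that median. Of 5 cholangiocyte markers 4 lay above it, and 2, Krt7 and Cftr, were lower. The keratins and Cftr are named after their values were seen. The part of these shifts in the values that follow was not tested.

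In the knockout cells most genes of this group that changed were higher, but citrate synthase, mitochondrial isocitrate and malate dehydrogenase, malic enzyme 1 and 1 of the pyruvate dehydrogenase kinases were lower. Of 32 members, 14 rose, 5 fell and 13 did not pass an adjusted p of 0.05, so that 59.4% passed, against 20.9% of all genes (10.4% higher and 10.4% lower). The members are brighter than most genes: 31 of them lay above the median probe set. Of the 12085 genes above it 35.0% passed, 2118 higher and 2109 lower. The median log2 fold change was 0.17 over the members and -0.003 over all genes. The 4 knockout arrays lay entirely above or below the 4 wild-type arrays for 21 members, against 26.1% of all genes. Among the 12085 genes above the median probe set they did so for 5283. The changes were mostly small. Among members that passed, the median size was 0.4 on the log2 scale, and only Pdk4 and Adhfe1, 2 of the 32, passed with a change of at least 2 times, against 2.03% of all genes.

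**Figure D1:**
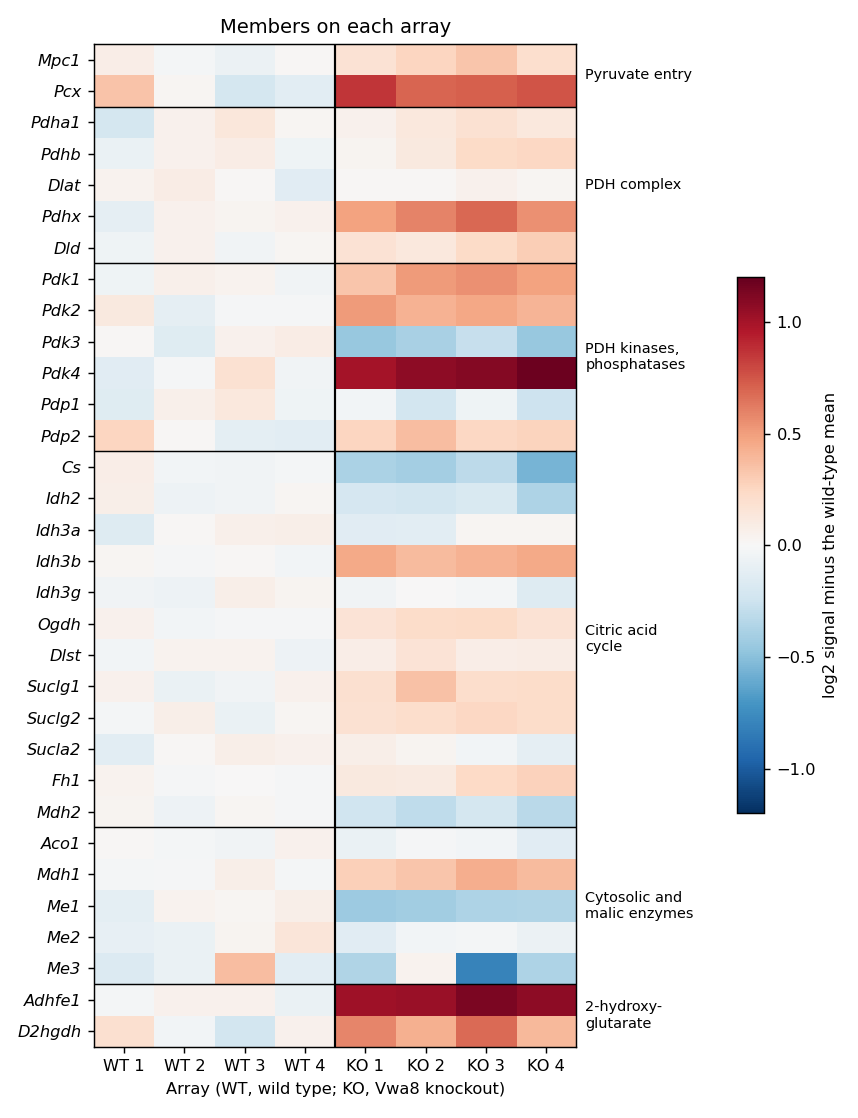
Log2 signal of each of the 32 members (rows, by role) on each of the 8 arrays (columns), minus the mean of the 4 wild-type arrays, from blue (lower) to red (higher). Pdk4, Adhfe1 and Pcx are red on all 4 knockout arrays, and Cs, Pdk3 and Me1 are blue on all 4.

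Both measured genes of pyruvate entry rose. Pcx encodes pyruvate carboxylase, which makes oxaloacetate from pyruvate. It read 5.28, 4.96, 4.73 and 4.81 on the wild-type arrays and 5.80, 5.64, 5.66 and 5.69 on the knockout arrays. Every knockout array lay above every wild-type array, although the wild-type arrays were spread more widely (SD 0.243) than the knockout arrays (SD 0.0717). Pcx was 1.69-fold higher, a log2 fold change of 0.76 ± 0.115 (SE, adjusted p = 0.00157). Mpc1, a subunit of the mitochondrial pyruvate carrier, read 9.52, 9.42, 9.37 and 9.45 in wild-type and 9.61, 9.70, 9.77 and 9.64 in knockout cells. The groups were apart but close, with a log2 fold change of 0.24 ± 0.0624 (adjusted p = 0.0237). The call for Mpc1 ended without any 1 of wild-type replicates 2, 3 and 4 and knockout replicates 2 and 3 (0.21 to 0.25, adjusted p 0.0515 to 0.0636). A second, dimmer probe set of Mpc1 stood at 0.02 ± 0.0652, and the mean of both at 0.13 (adjusted p = 0.137).

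Within the pyruvate dehydrogenase complex, the genes of the E1 and E2 components did not pass. Those of the binding protein and of E3, the shared dehydrogenase, rose. Pdhx encodes the protein that anchors the E3 component to the core of the complex. It read 7.48, 7.64, 7.62 and 7.64 in wild-type and 8.07, 8.19, 8.28 and 8.14 in knockout cells, 1.49-fold higher (0.58 ± 0.0686, adjusted p = 0.000393). All 4 knockout arrays stood clear of the wild-type arrays. Pdhx lies on chromosome 2, where the median change of the brighter neighbouring genes was 0.20, and after subtracting it the rise was 0.38 and still passed. Dld, the E3 component that this complex shares with other 2-oxoacid dehydrogenases, read 9.30 ± 0.0467 and 9.51 ± 0.0768 (0.21 ± 0.0604, adjusted p = 0.0377). The call for Dld ended without any 1 array other than knockout replicate 2 (0.18 to 0.23, adjusted p 0.0537 to 0.0900). Of the E1 and E2 genes, Pdha1 (E1 alpha) stood at 0.12 (95% interval -0.06 to 0.31), Pdhb (E1 beta) at 0.16 (0.00 to 0.32) and Dlat (E2, the acetyltransferase core) at 0.02 (-0.12 to 0.17). These intervals do not show that the 3 genes were unchanged. Pdhb passed after the subtraction of its neighbours, at 0.24 (adjusted p = 0.0415).

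The kinases of the complex moved in opposite directions, while neither gene of a catalytic phosphatase subunit passed. Pdk4, the kinase known to be induced in fasting and by glucocorticoids, had the largest change of all members. It read 6.36, 6.49, 6.68 and 6.46 on the wild-type arrays and 7.50, 7.57, 7.60 and 7.68 on the knockout arrays. The lowest knockout array exceeded the highest wild-type array, and the difference was 2.13-fold (1.09 ± 0.0784, adjusted p = 2.28e-05). Pdk2, the widely expressed kinase, read 8.05, 7.82, 7.92 and 7.92 and then 8.44, 8.35, 8.39 and 8.34, 1.37-fold higher (0.45 ± 0.0638, adjusted p = 0.00101). Pdk1, a target of the hypoxia factor HIF1, read 5.95, 6.06, 6.04 and 5.96 and then 6.33, 6.51, 6.55 and 6.48, 1.38-fold higher (0.46 ± 0.0655, adjusted p = 0.00103). For both kinases the groups were apart. Pdk1 lies on chromosome 2 beside genes that were higher too, and subtracting their median of 0.20 left 0.26, still past the threshold. A second probe set of Pdk1 was far dimmer, below the median probe set, and stood at 0.10 ± 0.0904. The mean of both probe sets stood at 0.28 and passed (adjusted p = 0.0186).

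Pdk3, on the X chromosome, was the kinase that fell. It read 5.31, 5.15, 5.35 and 5.39 in wild-type and 4.85, 4.91, 5.02 and 4.85 in knockout cells, 1.31-fold lower (-0.39 ± 0.0717, adjusted p = 0.00430). No knockout array reached the lowest wild-type array. Pdp1 and Pdp2 encode the catalytic subunits of the phosphatases that reactivate the complex. Pdp1 stood at -0.13 ± 0.0844 (95% interval -0.32 to 0.06) and its groups overlapped. Pdp2 stood at 0.29 ± 0.0927 and missed the threshold narrowly (adjusted p = 0.0602), and wild-type replicate 1, at 6.18, lay within the knockout range of 6.17 to 6.29. Without wild-type replicate 1 Pdp2 stood at 0.37 and passed (adjusted p = 0.00707). Pdpr, the regulatory subunit of the phosphatase and not a member, rose from 7.89 to 8.22 (0.32 ± 0.0547, adjusted p = 0.00279), and stood at 0.19 with its neighbours subtracted, which still passed. It is named after its value was seen.

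**Figure D2:**
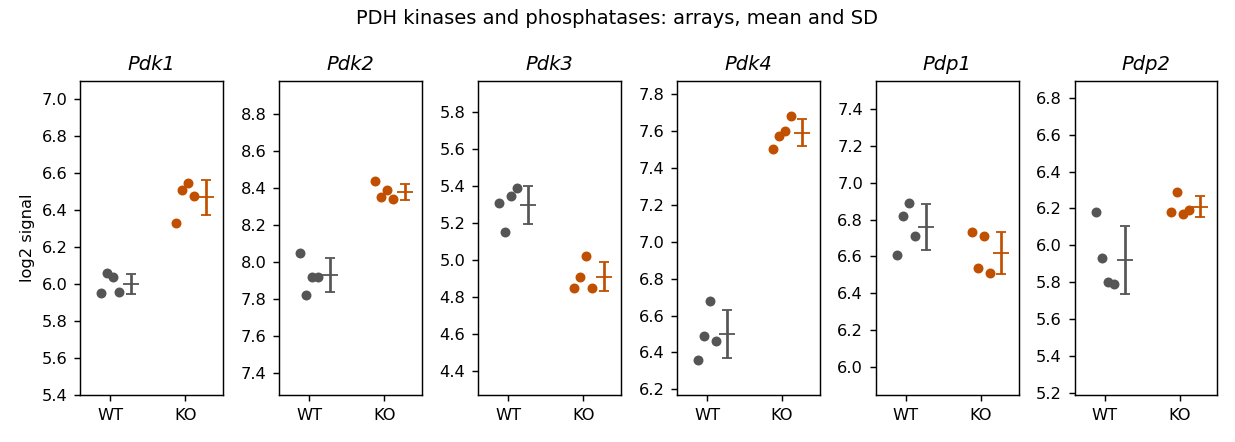
Log2 signal of the 4 kinase and 2 phosphatase genes of the pyruvate dehydrogenase complex on each wild-type (WT, grey) and Vwa8 knockout (KO, orange) array. Points are arrays, bars are the mean and SD of 4 arrays, and each panel spans the same height of the log2 scale. Pdk1, Pdk2 and Pdk4 lie higher in all 4 knockout arrays, Pdk3 lies lower, and the groups overlap for Pdp1 and Pdp2.

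The stretches ahead of the 4 kinase genes are shown because these paralogs, which act on the same enzyme, moved in both directions. Each is the 250 bases before the most upstream start in the RefSeq promoter table (assembly GRCm38.p6), 5′ to 3′ on the strand of the gene. The gene span annotated for Pdk1 begins 9 bases before the end of its stretch, and the other stretches end at the edge of the gene. Capitals mark CCAAT boxes (CCAAT, or ATTGG for the other strand) and the E-box CACGTG. Pdk1 lies at chr2:71872974-71873223 on the plus strand. The other kinases lie on the minus strand, Pdk2 at chr11:95041372-95041621, Pdk3 at chrX:93832151-93832400 and Pdk4 at chr6:5496279-5496528.
Pdk1: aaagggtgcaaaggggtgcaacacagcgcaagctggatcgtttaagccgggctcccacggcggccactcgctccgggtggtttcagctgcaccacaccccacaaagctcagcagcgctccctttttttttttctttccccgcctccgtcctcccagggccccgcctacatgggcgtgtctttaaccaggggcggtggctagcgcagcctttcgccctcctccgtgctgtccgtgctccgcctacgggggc
Pdk2: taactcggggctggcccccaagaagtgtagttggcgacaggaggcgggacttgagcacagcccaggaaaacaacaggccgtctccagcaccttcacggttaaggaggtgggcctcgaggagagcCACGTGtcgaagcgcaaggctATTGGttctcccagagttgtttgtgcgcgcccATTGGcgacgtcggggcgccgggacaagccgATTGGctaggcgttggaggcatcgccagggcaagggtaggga
Pdk3: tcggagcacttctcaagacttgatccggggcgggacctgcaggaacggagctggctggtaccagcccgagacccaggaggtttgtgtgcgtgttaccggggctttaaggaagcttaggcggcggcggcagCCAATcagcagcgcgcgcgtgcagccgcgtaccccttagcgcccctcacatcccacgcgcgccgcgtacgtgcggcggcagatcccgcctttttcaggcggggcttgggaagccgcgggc
Pdk4: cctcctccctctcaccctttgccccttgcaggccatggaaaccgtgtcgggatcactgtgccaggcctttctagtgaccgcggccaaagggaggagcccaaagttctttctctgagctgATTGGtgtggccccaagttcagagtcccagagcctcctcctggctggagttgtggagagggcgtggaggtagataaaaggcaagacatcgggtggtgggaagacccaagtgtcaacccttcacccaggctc
Pdk2 held 3 CCAAT boxes and 1 E-box, Pdk3 and Pdk4 held 1 CCAAT box each, and Pdk1 held neither. CpG dinucleotides numbered 29 in Pdk3, the gene that fell, 19 in both Pdk1 and Pdk2, and 6 in Pdk4. A FOXO motif, GTAAACA on either strand, was found in none of the 4 stretches and in 3.17% of all 32851 RefSeq promoter windows. These matches describe the letters and not any binding.

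Of the 12 genes of the cycle 4 rose, 3 fell and 5 did not pass, and the falls were in Cs and Idh2, at its start, and Mdh2, at its end. All 12 lay above the median probe set, where 35.0% of 12085 genes passed, 2118 higher and 2109 lower. With the neighbours' medians subtracted, 3 genes of the cycle were higher and 1, Cs, was lower. Cs encodes citrate synthase, which joins acetyl-CoA and oxaloacetate. It read 10.32, 10.21, 10.20 and 10.22 on the wild-type arrays and 9.86, 9.83, 9.93 and 9.68 on the knockout arrays. The knockout arrays were all lower, by 1.33-fold (-0.41 ± 0.0693, adjusted p = 0.00275). Cs lies on chromosome 10, where 622 brighter genes had a median change of -0.17. Subtracting the median of its nearest neighbours, -0.13, left -0.28, which passed (adjusted p = 0.0216). Idh2, the NADP-dependent isocitrate dehydrogenase of mitochondria, read 10.98, 10.85, 10.87 and 10.93 and then 10.71, 10.69, 10.73 and 10.54. Its groups were apart at a small distance (-0.24 ± 0.0637, 1.18-fold lower, adjusted p = 0.0277). The Idh2 call ended after the subtraction of neighbours (-0.15, adjusted p = 0.152), and without any 1 of wild-type replicates 1 and 4 and knockout replicates 1, 2 and 4 (-0.25 to -0.20, adjusted p 0.0515 to 0.0715).

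The NAD-dependent isocitrate dehydrogenase is an oligomer of alpha, beta and gamma subunits, and of its genes the beta subunit changed. Idh3b read 9.80, 9.77, 9.79 and 9.75 in wild-type and 10.23, 10.16, 10.20 and 10.23 in knockout cells. Replicates lay close together (SD 0.0238 and 0.0308) and the groups were clearly apart, with a 1.34-fold rise (0.43 ± 0.0503, adjusted p = 0.000371). Idh3b is the third member on chromosome 2, and after subtracting the neighbours' median of 0.16 it stood at 0.27 (adjusted p = 0.00556). Idh3a, the catalytic alpha subunit, stood at -0.05 (95% interval -0.22 to 0.11), and Idh3g, the gamma subunit, at -0.05 (-0.19 to 0.08). Knockout and wild-type arrays overlapped for both.

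From 2-oxoglutarate to succinate the changes that passed were small rises. Ogdh encodes the E1 component of the 2-oxoglutarate dehydrogenase complex and read 9.88, 9.80, 9.82 and 9.82 in wild-type and 9.99, 10.05, 10.06 and 10.00 in knockout cells (0.19 ± 0.0520, adjusted p = 0.0292). All knockout arrays lay above the wild-type ones. The Ogdh call ended after the subtraction of neighbours (0.10, adjusted p = 0.222) and without any 1 array other than wild-type replicate 1 and knockout replicate 4 (0.18 to 0.20, adjusted p 0.0566 to 0.0777). Dlst, the E2 component, did not pass at 0.10 ± 0.0547 (adjusted p = 0.241), though its groups were apart. Succinyl-CoA ligase pairs an alpha subunit, from Suclg1, with a beta subunit that sets the nucleotide it makes, GTP with Suclg2 and ATP with Sucla2. Suclg1 read 8.22, 8.09, 8.13 and 8.22 and then 8.36, 8.52, 8.38 and 8.39 (0.25 ± 0.0630, adjusted p = 0.0227). Suclg2 read 10.30, 10.39, 10.24 and 10.34 and then 10.50, 10.53, 10.57 and 10.54 (0.22 ± 0.0558, adjusted p = 0.0243). Both genes lie on chromosome 6, and in both the 4 knockout arrays were the higher ones. The call for Suclg1 ended without wild-type replicate 2 or 3 or knockout replicate 2 (0.21 to 0.23, adjusted p 0.0587 to 0.0621), and that for Suclg2 without wild-type replicate 1 or 3 or knockout replicate 2, 3 or 4 (0.19 to 0.22, adjusted p 0.0529 to 0.0645). A dim second probe set of Suclg2 stood at 0.34 ± 0.169, and the mean of both at 0.28, which did not pass (adjusted p = 0.0691). With quantile normalization Suclg2 stood at 0.17 and did not pass either (adjusted p = 0.074). Sucla2 stood at -0.01 (95% interval -0.17 to 0.15) with overlapping groups. It lies on chromosome 14, as Vwa8 does, where the median change of its brighter neighbours was -0.16.

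The last steps of the cycle went in different directions. Fh1 encodes fumarase, which hydrates fumarate to malate, and read 8.99, 8.94, 8.95 and 8.94 in wild-type and 9.07, 9.06, 9.19 and 9.23 in knockout cells. The groups did not overlap, but the difference of 0.18 ± 0.0597 missed the threshold (adjusted p = 0.0628), and passed in 3 of 17 alternatives. Mdh2 encodes the malate dehydrogenase of mitochondria, which closes the cycle. It read 10.58, 10.49, 10.57 and 10.54 and then 10.31, 10.25, 10.34 and 10.23. The knockout arrays were all lower (-0.26 ± 0.0545, adjusted p = 0.00806). Mdh2 lies on chromosome 5, where 772 brighter genes had a median change of -0.13. After subtracting the neighbours' median of -0.17 it stood at -0.10 and no longer passed (adjusted p = 0.251).

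Outside mitochondria the malate dehydrogenase gene rose and the malic enzyme gene fell. Mdh1 encodes the cytosolic enzyme of the malate-aspartate shuttle, and read 10.30, 10.31, 10.39 and 10.30 in wild-type and 10.61, 10.65, 10.76 and 10.70 in knockout cells. It was 1.28-fold higher with no overlap (0.35 ± 0.0577, adjusted p = 0.00228), and 0.27 after subtracting its neighbours. Me1 encodes the cytosolic malic enzyme, which yields NADPH for lipid synthesis. It read 10.30, 10.46, 10.44 and 10.49 and then 9.98, 10.00, 10.05 and 10.06, 1.32-fold lower (-0.40 ± 0.0616, adjusted p = 0.00162). The lowest wild-type array of Me1 still exceeded every knockout array. Aco1, the cytosolic aconitase that also acts as an iron regulatory protein, stood at -0.07 (95% interval -0.19 to 0.06). Of the mitochondrial malic enzymes, Me2 stood at -0.07 (-0.23 to 0.09). Me3 was the only member below the median probe set, at 4.06 ± 0.248 and 3.69 ± 0.342, and its difference of -0.37 (-0.78 to 0.04) did not pass. A second probe set of Me3, also dim, stood at 0.06 ± 0.117, and the mean of both at -0.16 (adjusted p = 0.306).

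Both genes of 2-hydroxyglutarate metabolism, a side branch from 2-oxoglutarate, rose. Adhfe1 encodes a hydroxyacid-oxoacid transhydrogenase of mitochondria, which oxidises gamma-hydroxybutyrate and forms D-2-hydroxyglutarate in the exchange. D2hgdh encodes the dehydrogenase that turns D-2-hydroxyglutarate back into 2-oxoglutarate. Adhfe1 read 7.10, 7.17, 7.17 and 7.04 in wild-type and 8.14, 8.16, 8.25 and 8.19 in knockout cells, 2.09-fold higher (1.07 ± 0.0585, adjusted p = 5.16e-06). The gap between the groups was several times the spread within either. D2hgdh read 6.63, 6.41, 6.22 and 6.49 and then 7.03, 6.87, 7.12 and 6.83, 1.44-fold higher (0.53 ± 0.103, adjusted p = 0.00607), with wider spread but no overlap. Both genes lie on chromosome 1, where 682 brighter genes had a median change of 0.15 and 68.8% of them were above 0. After subtracting their neighbours' medians, 0.31 and 0.24, Adhfe1 stood at 0.76 (adjusted p = 3.26e-05) and D2hgdh at 0.29, no longer past the threshold (adjusted p = 0.0811).

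**Figure D3:**
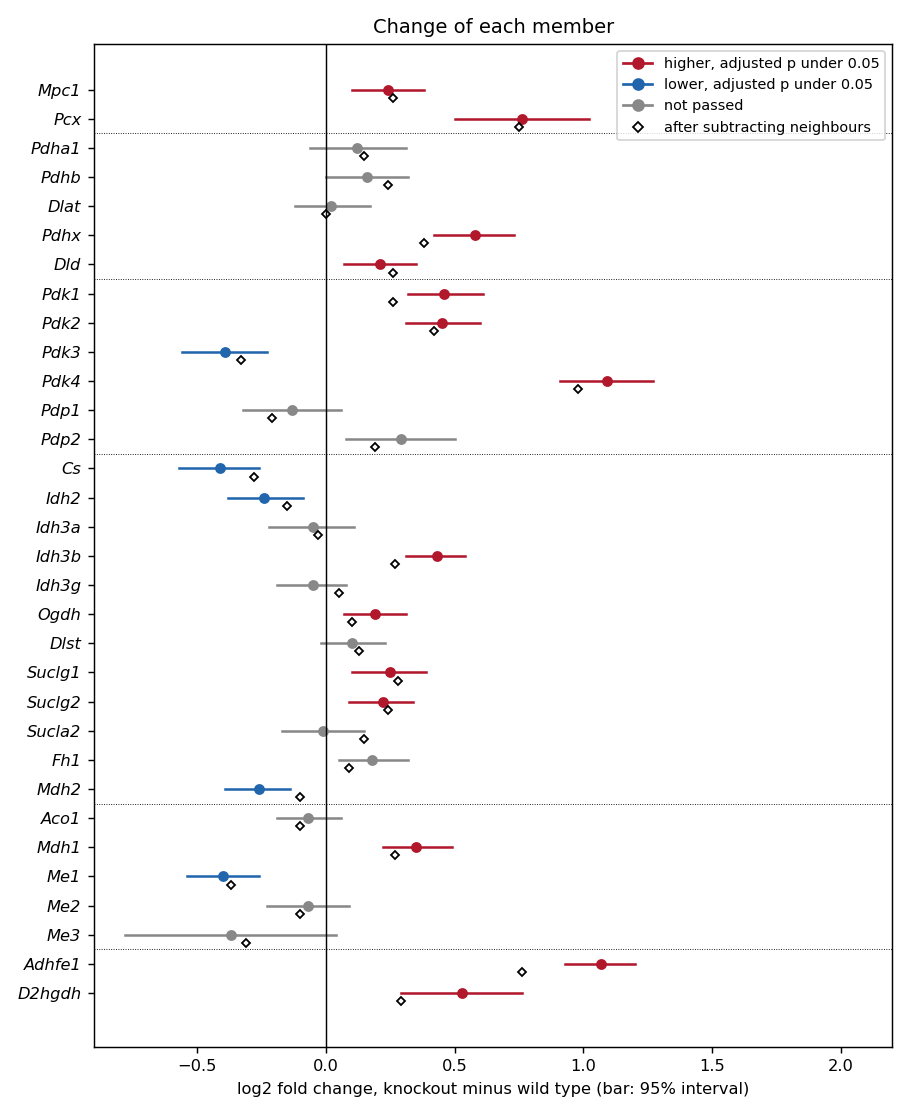
Log2 fold change of each member, knockout minus wild type, with its 95% interval in limma (red, higher; blue, lower; grey, not passed). Open diamonds give the change after subtracting the median of neighbouring genes on the chromosome, which moves Mdh2, Idh2, Ogdh and D2hgdh across the threshold toward 0 and leaves Pdk4 at 0.98 and Pcx at 0.75.

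Members shared their shifts with neighbouring genes to different degrees. The medians of the neighbouring brighter genes ran from -0.17 beside Mdh2 to 0.31 beside Adhfe1, and the part that this shared shift has in each change was not tested. With the neighbours' median subtracted, 13 members were higher and 3 lower, against 9.86% and 10.4% of 21964 genes. Of the 19 members that passed, 15 still did, all but Idh2, Ogdh, Mdh2 and D2hgdh, and Pdhb passed in addition. The 3 members on chromosome 2, Pdhx, Pdk1 and Idh3b, each stayed higher, and each shrank by 1.52 to 1.76 times. Pcx, Pdk2 and Me1 moved by 1.10 times or less.

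Genes that act at the same step were then compared with each other on each array, as the difference of their log2 signals, whose shift between genotypes shows unequal change and says nothing of which transcript is the more abundant. Of 11 pairs measured, 6 had groups that lay apart, each with an exact permutation p of 0.0286, two-sided, the smallest possible, and an adjusted p of 0.0524 over the 11 pairs, which misses 0.05. For Idh1 with Idh2, Mdh1 with Mdh2 and Pdk1 with Pdk3 this outcome was fixed by the values of the single genes. In these pairs all knockout arrays lay above the wild-type arrays for the first gene and below them for the second. Their p-values therefore add nothing to the changes of the single genes. The cytosolic and peroxisomal isocitrate dehydrogenase gene Idh1 (not a member) gained on the mitochondrial Idh2 by 1.28, from -0.81 ± 0.0529 to 0.47 ± 0.0977 (n = 4 each; exact p = 0.0286), in all 4 knockout arrays. Mdh1 gained on Mdh2 by 0.62, from between -0.29 and -0.17 on wild-type arrays to between 0.30 and 0.46 on knockout arrays. In both pairs the cytosolic gene gained on the mitochondrial one, whereas cytosolic Me1 lost 0.34 to mitochondrial Me2. The shifts of neighbouring genes were not subtracted from any pair. Their medians were 0.28 beside Idh1 and -0.09 beside Idh2, 0.09 beside Mdh1 and -0.17 beside Mdh2, and -0.04 beside Me1 and 0.04 beside Me2. The part that these have in the pair shifts was not tested. Among the kinases, Pdk1 gained 0.86 on Pdk3 and lost 0.63 to Pdk4, while its balance with Pdk2 shifted by 0.01 with overlapping groups. Idh3a lost 0.48 to Idh3b. The remaining pairs also had overlapping groups: Sucla2 against Suclg2 by -0.23 (exact p = 0.0571), Pdp1 against Pdp2 by -0.42 (exact p = 0.0857), Me1 against Me3 by -0.03 and Idh3a against Idh3g by 0.00.

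**Figure D4:**
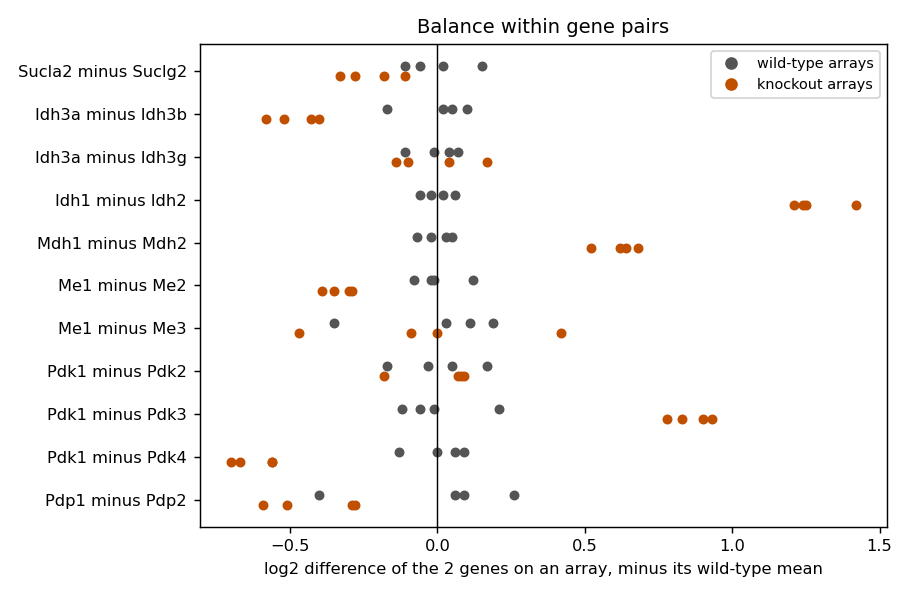
Difference of the log2 signals of 2 genes on each array, minus the mean of the 4 wild-type arrays (grey, wild type; orange, knockout). The knockout points of Idh1 minus Idh2, Mdh1 minus Mdh2 and Pdk1 minus Pdk3 lie to the right of all wild-type points, those of Idh3a minus Idh3b, Me1 minus Me2 and Pdk1 minus Pdk4 to the left, and the other pairs overlap.

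Genes next to these on the metabolic map gave a similar count. Of 39 such genes, listed beside the members, 35 were measured, 18 rose, 4 fell and 13 did not pass (median log2 fold change 0.25). That is 62.9% passed, against 20.9% of all genes. Of the 35, 31 lay above the median probe set, where 35.0% of 12085 genes passed. The 4 subunits of succinate dehydrogenase, the step of the cycle that belongs to the respiratory chain, did not pass: Sdha stood at 0.11, Sdhb at 0.14, Sdhc at 0.30 (adjusted p = 0.0549) and Sdhd at 0.06. The genes with the smallest adjusted p were Slc25a13, the aspartate-glutamate carrier that works with Mdh1 and Mdh2 in the malate-aspartate shuttle, at 1.73 ± 0.0556, Ldhd, the D-lactate dehydrogenase of mitochondria, at 2.00 ± 0.0806, and Idh1 at 1.04 ± 0.0481. Slc16a1, a monocarboxylate transporter for lactate and pyruvate, rose by 0.66 ± 0.0578 (0.40 with its neighbours subtracted) and Dhtkd1, a relative of Ogdh that acts on 2-oxoadipate, by 0.75 ± 0.0750. Pkm, the pyruvate kinase of non-liver tissues, stood at -0.74 ± 0.0672. All 6 passed with adjusted p no higher than 0.000148. With neighbours subtracted, Idh1 stood at 0.75, Dhtkd1 at 0.51, Slc25a13 at 1.61, Ldhd at 1.85 and Pkm at -0.67.

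Regulators known to act on the members were also mixed. Of 13 measured, 3 rose, 3 fell and 7 did not pass, so that 46.2% passed. All 13 lay above the median probe set, where 35.0% of 12085 genes passed, 2118 higher and 2109 lower. The count is therefore not read as a result about the regulators. Foxo1, a transcription factor that activates Pdk4, rose by 0.73 ± 0.0754, and Ppara, the receptor that does so in fasting liver, by 0.37 ± 0.0653. Ppargc1b, a coactivator of mitochondrial genes, rose by 0.35 ± 0.0727. Hif1a, whose protein activates Pdk1 in hypoxia, stood at -0.49 ± 0.0830, Myc at -0.67 ± 0.0694 and Nrf1, a factor for nuclear genes of mitochondrial proteins, at -0.25 ± 0.0647 (adjusted p = 0.0240). With both probe sets of Hif1a averaged its difference was -0.23 and missed the threshold (adjusted p = 0.115). Nrf1 passed in 10 of 17 alternatives and lost its call with neighbours subtracted (-0.21) and without wild-type replicate 1 or 4 or knockout replicate 1, 2 or 4, and with the replicate block. Foxo1 passed in all 17, at 0.44 to 0.78, and stood at 0.48 with its neighbours subtracted. Whether any of these changes bears on the members was not tested.

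RefSeq promoter windows were used for 28 of the 32 members, all but Pdp1, Idh3a, Me2 and Adhfe1. Each window is the 250 bases before the most upstream start in the promoter table. For 7 members this start lies inside the annotated span of the gene, by 9 to 12 bases for Pdk1, Dlst and Suclg2 and by 311 to 3258 for Pdhb, Me3, D2hgdh and Idh2. With both strands searched, 19 of the 28 held a GC box (CCGCCC, in 32.7% of all 32851 windows) and 15 a CCAAT box (33.8% of all windows). Among the 21 windows that do not reach into the gene, 13 held a GC box and 12 a CCAAT box. The median number of CpG dinucleotides was 16.5 per member and 6 over all windows, so base composition differs between them and the share of windows with a motif was not adjusted for it. The 32851 windows are all those in the promoter table and were not cut to 1 per gene. They include chromosome 18, where Me2 lies and whose windows were left out for members. The E-box CACGTG was found ahead of Pcx, Pdk2 and Pdp2 (6.02% of all windows), and AAGATGGC, a YY1 motif, ahead of Idh3g (1.56%). Both Pcx and Pdk2 rose, and Pdp2 and Idh3g did not pass. The letters of the NRF1 motif GCGCATGCG, the GABPA motif CCGGAAGT, the ERRA motif TCAAGGTCA and the TATA box TATAAA were in none of the 28 windows, and in 1.45%, 2.88%, 0.387% and 12.4% of all windows. The CCAAT, GC and FOXO motifs were added after the members' values were seen.

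One wild-type array stood at the edge of its group more often than the others. Wild-type replicate 1 was the highest or the lowest of its group for 25 of 32 members (12 highest, 13 lowest), or 78.1%, and for 11095 of all 22180 genes. It was the highest for Pcx, Pdk2, Pdp2 and Cs and the lowest for Pdha1, Pdhx, Idh3a and Me1. Among knockout arrays, replicate 1 was the lowest for 15 members and replicate 3 the highest for 15. Without wild-type replicate 1, 16 of the 19 members that passed still did, all but Dld, Idh2 and Suclg2. The source of this spread was not tested.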

How the data were processed

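Biotin-labelled RNA of 8 samples was read on Affymetrix mouse arrays, per the labels' protocols. The authors deposited log2 signals, 1 per probe set and array, between 0.44 and 13.55, with array medians from 4.27 to 4.33. The values themselves show the log2 scale. For background correction, normalization and summarisation, the method is not stated in the labels or the file. Nothing was rescaled. The number of arrays limits the precision, and no background measure was used.

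Of 41345 probe sets, 23521 had 1 gene symbol, 1814 several and 16010 none listed. Genotypes were compared over all 22180 genes with limma 3.58.1 (R 4.3.3), genotype the only term, with two-sided tests and Benjamini-Hochberg adjustment over all genes (threshold 0.05). The fit was also run on simulated data. These were drawn for each gene separately, without shared shifts of neighbouring genes, so that run cannot speak for such shifts. Chromosomes came from a RefSeq table of GRCm38.p6. The neighbours of a gene are the 30 nearest genes on each side with a mean above the median gene. All 33 members, Vwa8 and, of each other list, up to 6 genes with the smallest adjusted p are named, and Pdpr and the succinate dehydrogenase genes were named after their values were seen. Members and lists were chosen with earlier results of these data known. Alternatives were neighbour subtraction, leaving out each array, the replicate block, array weights, quantile normalization, median centring, robust variances with an intensity trend, dropping the dimmest 25% or 50% of probe sets, and averaging the probe sets of each gene. The fit over single probe sets was chosen after seeing the data.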

Additional observations from a re-analysis of the deposited data

Results flagged for a closer look

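In 5 of 66 groups of 4 arrays examined (32 members and Vwa8 in each genotype), 1 array lay far from the others by Dixon's 95% criterion, where chance marks about 1 group in 20. Wild-type replicate 1 was low for Pdhx, at 7.48 against 7.62 to 7.64 on the other arrays, and high for Cs, at 10.32 against 10.20 to 10.22. Both are on the far side from the knockout arrays. Knockout replicate 2 was high for Pdp2, at 6.29 against 6.17 to 6.19, and for Dlst, at 9.22 against 9.14 to 9.15. Wild-type replicate 3 was high for Me3, at 4.43 against 3.90 to 3.98, a probe set below the array median.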

How the results depend on the processing

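Of the 19 members that passed, all kept their direction under the 17 alternatives, and 11 passed under each: Pcx, Pdhx, Pdk1, Pdk2, Pdk3, Pdk4, Cs, Idh3b, Mdh1, Me1 and Adhfe1. The other 8 each lost the call in at least 1, for which the cause was not tested. Dld and Suclg2 were lost with quantile normalization, Idh2 with median centring, and Mpc1 and Suclg2 with the probe sets of each gene averaged. Members that had not passed were gained in some settings: Pdp2 and Fh1 without the dimmest 25% or 50% of probe sets, Pdhb, Pdp2 and Fh1 with the intensity trend and robust variances, Pdp2 with median centring or without wild-type replicate 1, and Pdhb with neighbour subtraction. Leaving out 1 array gave 14 to 17 members called, 9 to 13 of them higher (9 without wild-type replicate 3) and 4 to 5 lower. Same-numbered wild-type and knockout arrays deviated together at r = 0.142, -0.041, 0.065 and 0.058, so the numbers were not taken to pair samples, and not every array correlated best with its own number. With the replicate block, 13 members were called, 9 higher and 4 lower, and Mpc1, Dld, Idh2, Ogdh, Suclg1 and Suclg2 were lost. Neighbour subtraction left 3 members called lower, Pdk3, Cs and Me1. Signs turned only among members that had not passed: Sucla2 stood at 0.011 with median centring, 0.003 with array weights, 0.15 with neighbour subtraction and -0.053 to 0.025 without 1 array, Idh3g at 0.05 with neighbour subtraction, and Dlat at -0.023 to 0.055 without 1 array. Over all genes 3717 passed with the replicate block and 3858 to 4038 without 1 array, and Vwa8 stayed between -3.82 and -3.64. The count of isozyme pairs whose groups lay apart ran from 6 to 8. Values below the median probe set, as for Me3, are limited by signal.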
